A study of Homo sapiens with 6 samples.

Results

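The 7 genes NR0B1, CCK, GSTM4, ABHD6, CAV1, FCGRT and PRKCB are known effector genes that the EWS-FLI1 fusion protein activates in Ewing sarcoma, and they were followed here by name, 7 of the 26931 gene symbols measured. TC32 is an Ewing sarcoma cell line. Its cells received an siRNA against EWSR1 (siEWSR1), an siRNA against FLI1 (siFLI1) or a control siRNA (siNeg), and RNA was sequenced 48 h later, with 2 libraries per group and 6 in all. All groups were transfected, and all came from the same cell line, so the values describe 1 tumour model. Levels are FPKM, fragments scaled to transcript length and to the size of the library, so they can be compared between genes.

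EWS-FLI1 joins the activating end of EWSR1, which normally binds RNA, to the DNA-binding end of FLI1, an ETS transcription factor. ETS factors recognise a GGAA core in DNA. The fusion protein, unlike normal FLI1, also opens chromatin at long runs of repeated GGAA, and several of the 7 genes have been linked to such repeats or to nearby ETS sites. The genes encode unrelated proteins: an orphan nuclear receptor, a neuropeptide, a detoxifying enzyme, a lipid hydrolase, a membrane scaffold, an antibody receptor and a protein kinase.

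The sequences directly before the transcription start are shown because GGAA is the core that ETS factors recognise. All 7 genes had RefSeq promoter windows (GRCh38.p14), 10 in all, and the 250 bases before each start were searched on both strands for GGAA, for the repeat GGAAGGAA and for the longer ETS motif CCGGAAG. Both longer motifs contain the core. The 4 windows below span what was found, from several GGAA to none. They lie at chrX:30309391-30309640 on the minus strand for NR0B1, chr7:116524759-116525008 on the plus strand for CAV1, chr19:49512411-49512660 on the plus strand for FCGRT and chr16:23835733-23835982 on the plus strand for PRKCB. Each reads 5′ to 3′ toward the start, and capitals mark GGAA or its reverse complement TTCC.
NR0B1: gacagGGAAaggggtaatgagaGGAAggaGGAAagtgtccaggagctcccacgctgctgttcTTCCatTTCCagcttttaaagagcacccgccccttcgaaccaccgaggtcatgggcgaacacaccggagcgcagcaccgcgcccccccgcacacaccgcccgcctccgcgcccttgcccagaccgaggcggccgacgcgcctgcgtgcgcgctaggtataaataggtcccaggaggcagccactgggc
CAV1: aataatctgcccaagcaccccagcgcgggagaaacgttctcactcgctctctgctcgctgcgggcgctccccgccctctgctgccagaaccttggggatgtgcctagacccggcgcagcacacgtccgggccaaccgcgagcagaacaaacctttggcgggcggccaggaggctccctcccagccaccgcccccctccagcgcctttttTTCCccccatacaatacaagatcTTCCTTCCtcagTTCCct
FCGRT: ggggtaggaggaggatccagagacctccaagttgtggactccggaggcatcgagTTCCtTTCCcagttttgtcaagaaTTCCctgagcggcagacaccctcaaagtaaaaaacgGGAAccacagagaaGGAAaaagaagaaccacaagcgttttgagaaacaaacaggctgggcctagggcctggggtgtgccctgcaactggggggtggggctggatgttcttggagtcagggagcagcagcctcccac
PRKCB: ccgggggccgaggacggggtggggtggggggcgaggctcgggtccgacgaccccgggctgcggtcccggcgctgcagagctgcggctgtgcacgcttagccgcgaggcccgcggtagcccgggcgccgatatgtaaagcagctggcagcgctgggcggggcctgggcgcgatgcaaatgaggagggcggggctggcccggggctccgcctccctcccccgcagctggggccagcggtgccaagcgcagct

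The NR0B1 window held 3 GGAA on the printed strand and 2 on the other, none of them in tandem. The FCGRT window held 2 and 3. In the CAV1 window all 4 lay on the other strand, and 2 of these formed a GGAAGGAA that begins 18 bases before the start. The PRKCB window held none. Among the genes not shown, GSTM4 had 3 and ABHD6 had 1 GGAA on the printed strand, and the 2 CCK windows held 1 and 5 over both strands. Another CAV1 window overlapping the one shown held the same GGAAGGAA, and the last of the 3 CAV1 windows held no match. None of the 10 windows held CCGGAAG. Over 35116 RefSeq windows of the same length, 92.7% held GGAA, 3.06% held GGAAGGAA and 8.52% held CCGGAAG, with a median of 3 GGAA per window. These matches describe the letters of the windows alone, and the long GGAA repeat known for NR0B1 lies farther upstream than the window reaches.

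Read as counts, the authors' bounds summed to 15159073 to 16298374 fragments per library. This reading did not give whole fragments for most low rows, so depth was not measured. Between 12079 and 12741 genes reached an FPKM of 1. All 5 Ewing sarcoma markers (CD99, NKX2-2, STEAP1, BCL11B and LIPI) stood at 1 FPKM or more in every library. EWSR1 stood at 34.6 and 32.3 FPKM with siEWSR1 and 51.2 and 50.2 FPKM with siFLI1, against 46.5 and 47.2 FPKM with siNeg. It was lower with siEWSR1 (log2 change -0.48 ± 0.06 (SE), limma adjusted p = 0.000444). FLI1 stood at 10.4 and 10.6 FPKM with siEWSR1 and 8.98 and 8.56 FPKM with siFLI1, against 10.9 FPKM in both siNeg libraries. It was lower with siFLI1 (-0.29 ± 0.06, adjusted p = 0.00423) and not called with siEWSR1 (-0.04, adjusted p = 0.534). EWSR1 was not called with siFLI1 (0.11, adjusted p = 0.11), except as higher under quantile normalization (0.20, adjusted p = 0.0107). The levels of both genes add normal and fusion transcripts, so the loss of the fusion transcript itself was not measured. Which part of its transcript each siRNA matches was not analysed here.

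All 7 genes were lower with siEWSR1 than with siNeg, or 6 without FCGRT under quantile normalization or with siNeg replicate 1 left out, and 6 of the 7 were lower with siFLI1, with FCGRT the exception (limma, adjusted p under 0.05). Over all 13043 genes tested, 31.0% were lower and 33.2% higher with siEWSR1, and 29.6% were lower and 35.7% higher with siFLI1. Both siEWSR1 libraries lay below both siNeg libraries for all 7 genes and for 40.7% of tested genes, and both siFLI1 libraries did so for 6 of the 7 and for 39.1% of tested genes. The median log2 change of the 7 genes was -0.83 with siEWSR1 and -0.95 with siFLI1, against 0.007 and 0.041 over all tested genes. NR0B1 and CCK fell most, to between 26.8% and 28.6% of their siNeg means. ABHD6 fell to 46.5% with siEWSR1 and 46.2% with siFLI1, GSTM4 and PRKCB to between 51.4% and 58.6%, and CAV1 to 66.7% with siEWSR1 and 69.4% with siFLI1. Both comparisons use the same siNeg libraries, so they are not independent of each other. In RNA from whole cultures, less RNA per cell and fewer cells of a kind cannot be told apart.

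**Figure D1:**
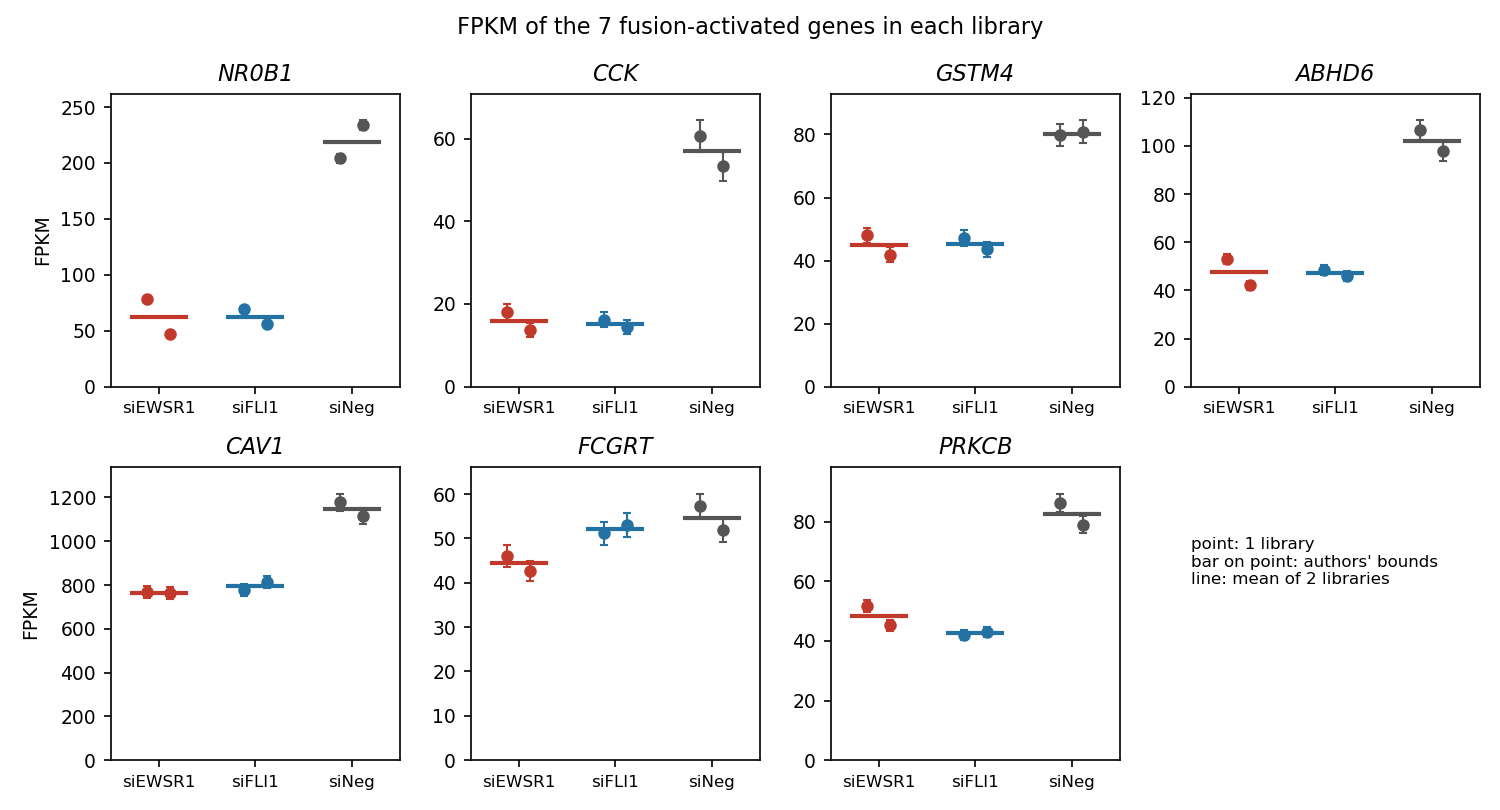
FPKM of the 7 genes in each library, in the order siEWSR1, siFLI1 and siNeg; points are libraries, bars on points are the authors' bounds for 1 library and lines are means of 2 libraries. Both libraries of either siRNA lie below both siNeg libraries for 6 genes, and for FCGRT the siFLI1 libraries overlap the siNeg libraries.

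The spread of the authors' bounds was narrow beside the changes, except for FCGRT with siFLI1. FCGRT had bounds 4.89% to 5.30% of the value from it, and its siFLI1 mean was 95.4% of its siNeg mean. The bounds lay 1.87% to 4.09% of the value from it for NR0B1 and 6.44% to 12.4% for CCK. CCK had the lowest level in the knockdown libraries. Replicates often differed by more than this, most for NR0B1 with siEWSR1, where the higher library was 1.66 times the lower. The siEWSR1 replicate 1 library was above replicate 2 for all 7 genes, by 1.01 times for CAV1 and 1.08 to 1.66 times for the others. EWSR1 itself stood at 34.6 FPKM in that library and 32.3 FPKM in the other. The part of this library difference in the results was not tested, but leaving out either siEWSR1 library kept all 7 calls.

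**Figure D2:**
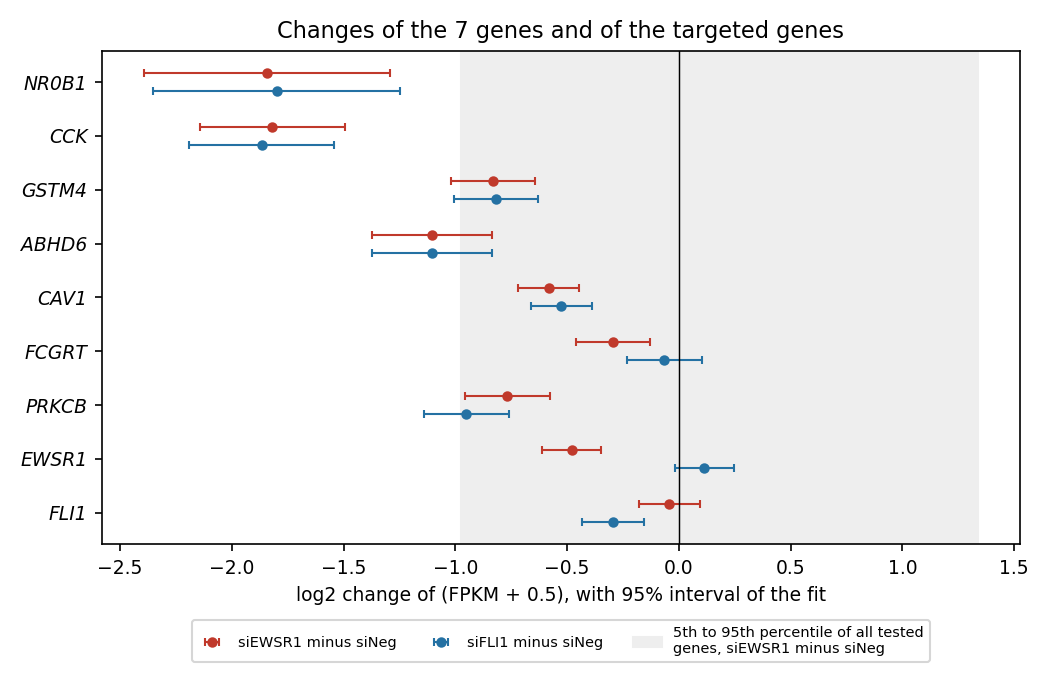
Log2 changes of (FPKM + 0.5) with their 95% intervals for the 7 genes and for EWSR1 and FLI1, siEWSR1 minus siNeg above siFLI1 minus siNeg; the grey band spans the 5th to 95th percentile of all tested genes for siEWSR1 minus siNeg, -0.98 to 1.34. NR0B1 and CCK lie wholly below the band with both siRNAs, and the FCGRT interval with siFLI1 spans 0.

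NR0B1 encodes DAX1, an orphan nuclear receptor without a classical DNA-binding domain that represses other nuclear receptors. The gene lies on chromosome X from 30322539 to 30327495 (hg19) and overlaps no other annotated gene. Its level was 78.0 and 47.0 FPKM with siEWSR1 and 69.0 and 56.4 FPKM with siFLI1, against 204 and 234 FPKM with siNeg. All 4 knockdown libraries lay far below both siNeg libraries, and the 2 siFLI1 values lay between the 2 siEWSR1 values. The log2 change was -1.84 ± 0.23 with siEWSR1 (SE, 3.59-fold, adjusted p = 0.000622) and -1.80 ± 0.23 with siFLI1 (3.48-fold, adjusted p = 0.00064). In each comparison fewer than 1% of the tested genes changed further down, 0.514% with siEWSR1 and 0.590% with siFLI1.

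Of 5 nuclear receptor partners and relatives of NR0B1, 2 were expressed highly enough to test. RXRA, a retinoid X receptor that pairs with many nuclear receptors, stood at 16.6 and 17.2 FPKM with siEWSR1 and 17.6 and 19.1 FPKM with siFLI1, against 9.62 and 9.94 FPKM with siNeg. It rose with both siRNAs (log2 change 0.76, adjusted p = 0.000117, and 0.88, adjusted p = 5.88e-05). The corepressor NCOR1 stood at 17.3 and 17.0 FPKM with siEWSR1 and 14.9 and 16.0 FPKM with siFLI1, against 18.0 and 17.9 FPKM with siNeg. It was called lower with siFLI1 (-0.21, adjusted p = 0.0179) and not with siEWSR1 (-0.06, adjusted p = 0.372), a difference between the siRNAs that was itself not called (siEWSR1 minus siFLI1 0.15, adjusted p = 0.195). The siFLI1 call ended without siFLI1 replicate 1 (-0.16, adjusted p = 0.103) or without either siNeg library (adjusted p = 0.0821 and 0.0751).

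CCK encodes the precursor of cholecystokinin, a peptide that gut cells and neurons secrete. It lies on chromosome 3 from 42299316 to 42307687 (hg19). CCK stood at 18.0 and 13.8 FPKM with siEWSR1 and 16.2 and 14.3 FPKM with siFLI1, against 60.6 and 53.5 FPKM with siNeg. The 4 knockdown values lay close together, far below the siNeg values. The log2 change was -1.82 ± 0.13 with siEWSR1 (adjusted p = 7.62e-05), 3.53-fold, and -1.87 ± 0.13 with siFLI1 (adjusted p = 5.93e-05), 3.65-fold.

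Of the 7 genes listed for cholecystokinin receptors and for the enzymes that cut and trim peptide precursors, 4 were tested. With either siRNA 2 of these were lower and 1 was higher. Over all tested genes 31.0% were lower and 33.2% higher with siEWSR1, and 29.6% lower and 35.7% higher with siFLI1. PCSK2, a prohormone convertase that cuts precursors, stood at 8.23 and 6.17 FPKM with siEWSR1 and 7.68 and 6.74 FPKM with siFLI1, against 16.9 and 15.5 FPKM with siNeg. Its log2 change was -1.13 with siEWSR1 (adjusted p = 0.000523) and -1.12 with siFLI1 (adjusted p = 0.000503). CPE, the carboxypeptidase that trims the cut peptides, moved the other way, at 42.0 and 47.0 FPKM with siEWSR1 and 41.6 and 45.6 FPKM with siFLI1, against 16.5 and 17.3 FPKM with siNeg. Its log2 change was 1.37 with siEWSR1 (adjusted p = 2.83e-05) and 1.34 with siFLI1 (adjusted p = 2.43e-05). The receptor gene CCKBR was near the lower limit of the test, at 0.382 and 0.110 FPKM with siEWSR1 and 0.426 and 0.178 FPKM with siFLI1, against 1.25 and 1.19 FPKM with siNeg. It was lower with both siRNAs (-1.23, adjusted p = 0.00334, and -1.12, adjusted p = 0.00491), but it was tested only because its siNeg values passed the filter, so a lower value in the other groups was built in. PAM, which amidates finished peptides and was named after its values were seen, was not called (0.07, adjusted p = 0.315, and 0.10, adjusted p = 0.178).

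ABHD6 encodes a membrane serine hydrolase that breaks down the endocannabinoid 2-arachidonoylglycerol. The gene lies on chromosome 3 from 58223229 to 58280463 (hg19). It stood at 53.0 and 42.0 FPKM with siEWSR1 and 48.6 and 45.8 FPKM with siFLI1, against 107 and 97.7 FPKM with siNeg. The knockdown groups overlapped each other and neither overlapped siNeg. The log2 change was -1.11 ± 0.11 with each siRNA (adjusted p = 0.00026 with siEWSR1 and 0.000232 with siFLI1), 2.15-fold in both cases.

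Of 8 other endocannabinoid enzymes and receptors, 4 were tested. MGLL and FAAH, the other main hydrolases of the system, and the receptors CNR1 and CNR2 did not reach the level needed. With siEWSR1 2 of the 4 were lower and 2 higher, and with siFLI1 0 were lower and 2 higher. The shares among all tested genes were 31.0% lower and 33.2% higher with siEWSR1, and 29.6% lower and 35.7% higher with siFLI1. DAGLA, a lipase that makes 2-arachidonoylglycerol, stood at 1.50 and 1.38 FPKM with siEWSR1 and 1.56 and 1.28 FPKM with siFLI1, against 0.819 and 0.980 FPKM with siNeg (log2 change 0.48, adjusted p = 0.0125, and 0.45, adjusted p = 0.0151). It passed the filter through the knockdown libraries alone, so a higher value in those groups was built in. Both counts of higher genes include it. NAPEPLD, which makes other N-acyl lipids of the system, had changes of 0.35 (adjusted p = 0.0111) and 0.24 (adjusted p = 0.0434). Its gene overlaps ARMC10 and RPL19P12, whose means over all libraries were 6.4 and 37 FPKM. The siFLI1 call of NAPEPLD ended with no filter (adjusted p = 0.0816) and with median-ratio scaling (adjusted p = 0.0731). Neither gene was called under quantile normalization (DAGLA 0.12, adjusted p = 0.415, and 0.05, adjusted p = 0.746; NAPEPLD 0.16, adjusted p = 0.162, and 0.03, adjusted p = 0.787), nor in either comparison without siNeg replicate 1 (adjusted p = 0.0586 to 0.155). The siFLI1 calls of both also ended without siFLI1 replicate 1 (DAGLA adjusted p = 0.0865, NAPEPLD 0.0627). For NAPEPLD the siEWSR1 call ended without siEWSR1 replicate 2 (adjusted p = 0.0556), and the siFLI1 call without siFLI1 replicate 2 (0.189) or siNeg replicate 2 (0.109). ABHD12, another hydrolase of 2-arachidonoylglycerol, whose gene overlaps PYGB, was called lower with siEWSR1 (-0.25, adjusted p = 0.0141) and not with siFLI1 (-0.04, adjusted p = 0.649), and the siRNAs did not differ past the threshold (-0.22, adjusted p = 0.117). Its call ended without siEWSR1 replicate 2 (adjusted p = 0.0611) or siNeg replicate 1 (adjusted p = 0.091).

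PRKCB encodes protein kinase C beta, a classical isoform activated by calcium and diacylglycerol. Its gene, on chromosome 16 from 23847300 to 24231932 (hg19), contains MIR1273H, listed at 0 in all libraries. PRKCB stood at 51.6 and 45.2 FPKM with siEWSR1 and 42.1 and 42.9 FPKM with siFLI1, against 86.4 and 79.0 FPKM with siNeg. The 3 groups did not overlap, and the siFLI1 libraries were the lowest. On the log2 scale PRKCB changed by -0.77 ± 0.08 with siEWSR1 (adjusted p = 0.00028), 1.70-fold, and -0.95 ± 0.08 with siFLI1 (adjusted p = 0.000103), 1.93-fold.

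Of 8 other protein kinase C isoforms, 3 were tested, and each stood far below PRKCB in siNeg cells. PRKCI, an atypical isoform, stood at 4.45 and 4.96 FPKM with siEWSR1 and 4.81 and 5.29 FPKM with siFLI1, against 7.02 and 6.79 FPKM with siNeg, and was lower with both (-0.51, adjusted p = 0.00175, and -0.42, adjusted p = 0.00417). PRKCE, an isoform that needs no calcium, stood at 2.67 and 2.74 FPKM with siEWSR1 and 2.93 and 3.14 FPKM with siFLI1, against 1.85 and 1.80 FPKM with siNeg, and was higher with both (0.46, adjusted p = 0.00232, and 0.60, adjusted p = 0.000688). PRKCD, likewise calcium-independent, was not called (0.10, adjusted p = 0.24, and 0.08, adjusted p = 0.34).

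GSTM4 encodes a mu-class glutathione S-transferase, an enzyme that couples glutathione to reactive compounds. It lies in a cluster of genes of similar sequence on chromosome 1, from 110198698 to 110208123 (hg19), so its reads may be shared with its paralogs. GSTM4 stood at 48.1 and 41.9 FPKM with siEWSR1 and 47.2 and 43.5 FPKM with siFLI1, against 79.8 and 80.9 FPKM with siNeg. The siNeg libraries nearly coincided, and the knockdown libraries lay well below them. The log2 change was -0.83 ± 0.08 with siEWSR1 (adjusted p = 0.0002), 1.78-fold, and -0.82 ± 0.08 with siFLI1 (adjusted p = 0.000187), 1.76-fold.

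Of 15 other glutathione S-transferases, 12 were tested. With siEWSR1 5 were lower and 4 higher, and with siFLI1 4 were lower and 5 higher. The shares over all tested genes were 31.0% lower and 33.2% higher with siEWSR1, and 29.6% lower and 35.7% higher with siFLI1. GSTM5, of the same cluster, stood at 3.81 and 3.23 FPKM with siEWSR1 and 4.61 and 4.58 FPKM with siFLI1, against 7.81 and 7.44 FPKM with siNeg (-1.02, adjusted p = 0.000127, and -0.67, adjusted p = 0.000663). GSTM2, whose gene lies 2.52 kb from GSTM4 and which was chosen after its values were seen, rose, at 33.8 and 37.2 FPKM with siEWSR1 and 39.1 and 38.0 FPKM with siFLI1, against 22.8 and 23.3 FPKM with siNeg (0.61, adjusted p = 0.000268, and 0.73, adjusted p = 0.000115). GSTM4 and GSTM2, adjacent genes of 1 sequence family, thus differed in direction. MGST1, a membrane-bound transferase, stood at 252 and 231 FPKM with siEWSR1 and 239 and 236 FPKM with siFLI1, against 415 and 397 FPKM with siNeg (-0.75, adjusted p = 0.000101, and -0.77, adjusted p = 7.75e-05). The kappa-class GSTK1 stood at 38.7 and 41.0 FPKM with siEWSR1 and 45.2 and 45.6 FPKM with siFLI1, against 27.3 and 25.3 FPKM with siNeg (0.59, adjusted p = 0.000282, and 0.78, adjusted p = 8.24e-05).

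CAV1 encodes caveolin-1, the coat protein of the small plasma membrane pits called caveolae. It lies on chromosome 7 from 116164839 to 116201239 (hg19). CAV1 had the highest level of the 7 genes, at 768 and 763 FPKM with siEWSR1 and 777 and 815 FPKM with siFLI1, against 1178 and 1116 FPKM with siNeg. Both knockdown groups lay below siNeg with a wide gap. In siNeg libraries its mean exceeded that of 99.7% of the tested genes. The log2 change was -0.58 ± 0.06 with siEWSR1 (adjusted p = 0.000225), 1.50-fold, and -0.53 ± 0.06 with siFLI1 (adjusted p = 0.000306), 1.44-fold.

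Of 8 other genes of caveolae, 6 were tested. With siEWSR1 3 were lower and 2 higher, and with siFLI1 2 were lower and 2 higher. All tested genes had shares of 31.0% lower and 33.2% higher with siEWSR1, and 29.6% lower and 35.7% higher with siFLI1. CAV2, whose product assembles with caveolin-1 and whose gene lies 16.2 kb from CAV1, stood at 41.4 and 40.7 FPKM with siEWSR1 and 40.9 and 43.5 FPKM with siFLI1, against 99.7 and 90.4 FPKM with siNeg. It fell by 1.20 on the log2 scale with siEWSR1 (adjusted p = 2.59e-05) and by 1.16 with siFLI1 (adjusted p = 2.3e-05). PTRF, the older symbol of CAVIN1, whose product stabilises caveolae, stood at 44.4 and 42.1 FPKM with siEWSR1 and 61.5 and 65.2 FPKM with siFLI1, against 23.0 and 23.8 FPKM with siNeg (0.87, adjusted p = 5.02e-05, and 1.42, adjusted p = 7.72e-06). EHD2, an ATPase at the neck of caveolae, stood at 16.3 and 15.0 FPKM with siEWSR1 and 21.7 and 22.9 FPKM with siFLI1, against 2.89 and 3.29 FPKM with siNeg (2.17, adjusted p = 6.97e-06, and 2.67, adjusted p = 2.96e-06). CAV1 and CAV2 were lower while PTRF and EHD2 were higher in the same libraries. Other accessory genes, named after their values were seen, were lower: SDPR, the older symbol of CAVIN2, with both siRNAs (-0.52, adjusted p = 0.000688, and -0.36, adjusted p = 0.00338), and PACSIN2, a membrane-bending protein, with siEWSR1 (-0.41, adjusted p = 0.00162). PACSIN2 was not called with siFLI1 (-0.16, adjusted p = 0.0705; with median-ratio scaling -0.20, adjusted p = 0.0209, and called too in a fit of the compared groups alone or without either siEWSR1 library) or between the siRNAs (-0.26, adjusted p = 0.0786).

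FCGRT encodes the heavy chain of FcRn, the neonatal Fc receptor, which rescues IgG and albumin from degradation. It lies on chromosome 19 from 50015536 to 50029685 (hg19). FCGRT stood at 46.0 and 42.7 FPKM with siEWSR1 and 51.1 and 53.0 FPKM with siFLI1, against 57.3 and 51.8 FPKM with siNeg. The siEWSR1 libraries were the lowest, and the siFLI1 and siNeg libraries overlapped. With siEWSR1 FCGRT fell by 0.29 ± 0.07 on the log2 scale (1.23-fold, adjusted p = 0.00949). Its change with siFLI1 was -0.07 ± 0.07 (adjusted p = 0.438), with a 95% interval of -0.23 to 0.10. The call with siEWSR1 ended under quantile normalization (-0.13, adjusted p = 0.0935) and without siNeg replicate 1 (-0.22, adjusted p = 0.0637). With siEWSR1, 26.6% of tested genes changed further down than FCGRT.

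FcRn needs beta-2 microglobulin as its light chain, and its gene B2M is also part of every HLA class I molecule. B2M stood at 931 and 937 FPKM with siEWSR1 and 1028 and 1035 FPKM with siFLI1, against 1376 and 1246 FPKM with siNeg, and fell with both siRNAs (-0.49, adjusted p = 0.000755, and -0.34, adjusted p = 0.00334). Of 7 genes listed for the FcRn partner and other IgG receptors, 3 were tested, and 2 were lower and 1 higher with either siRNA. Among all tested genes 31.0% were lower and 33.2% higher with siEWSR1, and 29.6% lower and 35.7% higher with siFLI1. TRIM21, an antibody receptor inside cells, stood at 6.28 and 6.10 FPKM with siEWSR1 and 6.35 and 6.86 FPKM with siFLI1, against 4.30 and 4.24 FPKM with siNeg (0.49, adjusted p = 0.000965, and 0.57, adjusted p = 0.000445). FCGR2A, an Fc gamma receptor of myeloid cells, was at 1.73 and 1.53 FPKM with siEWSR1 and 1.90 and 1.75 FPKM with siFLI1, against 2.24 and 2.63 FPKM with siNeg (-0.46, adjusted p = 0.00892, and -0.33, adjusted p = 0.031). Without siNeg replicate 2 neither of these FCGR2A calls held (-0.36, adjusted p = 0.061, and -0.24, adjusted p = 0.175), and the siFLI1 call also ended without either siFLI1 library (adjusted p = 0.0659 and 0.133).

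**Figure D3:**
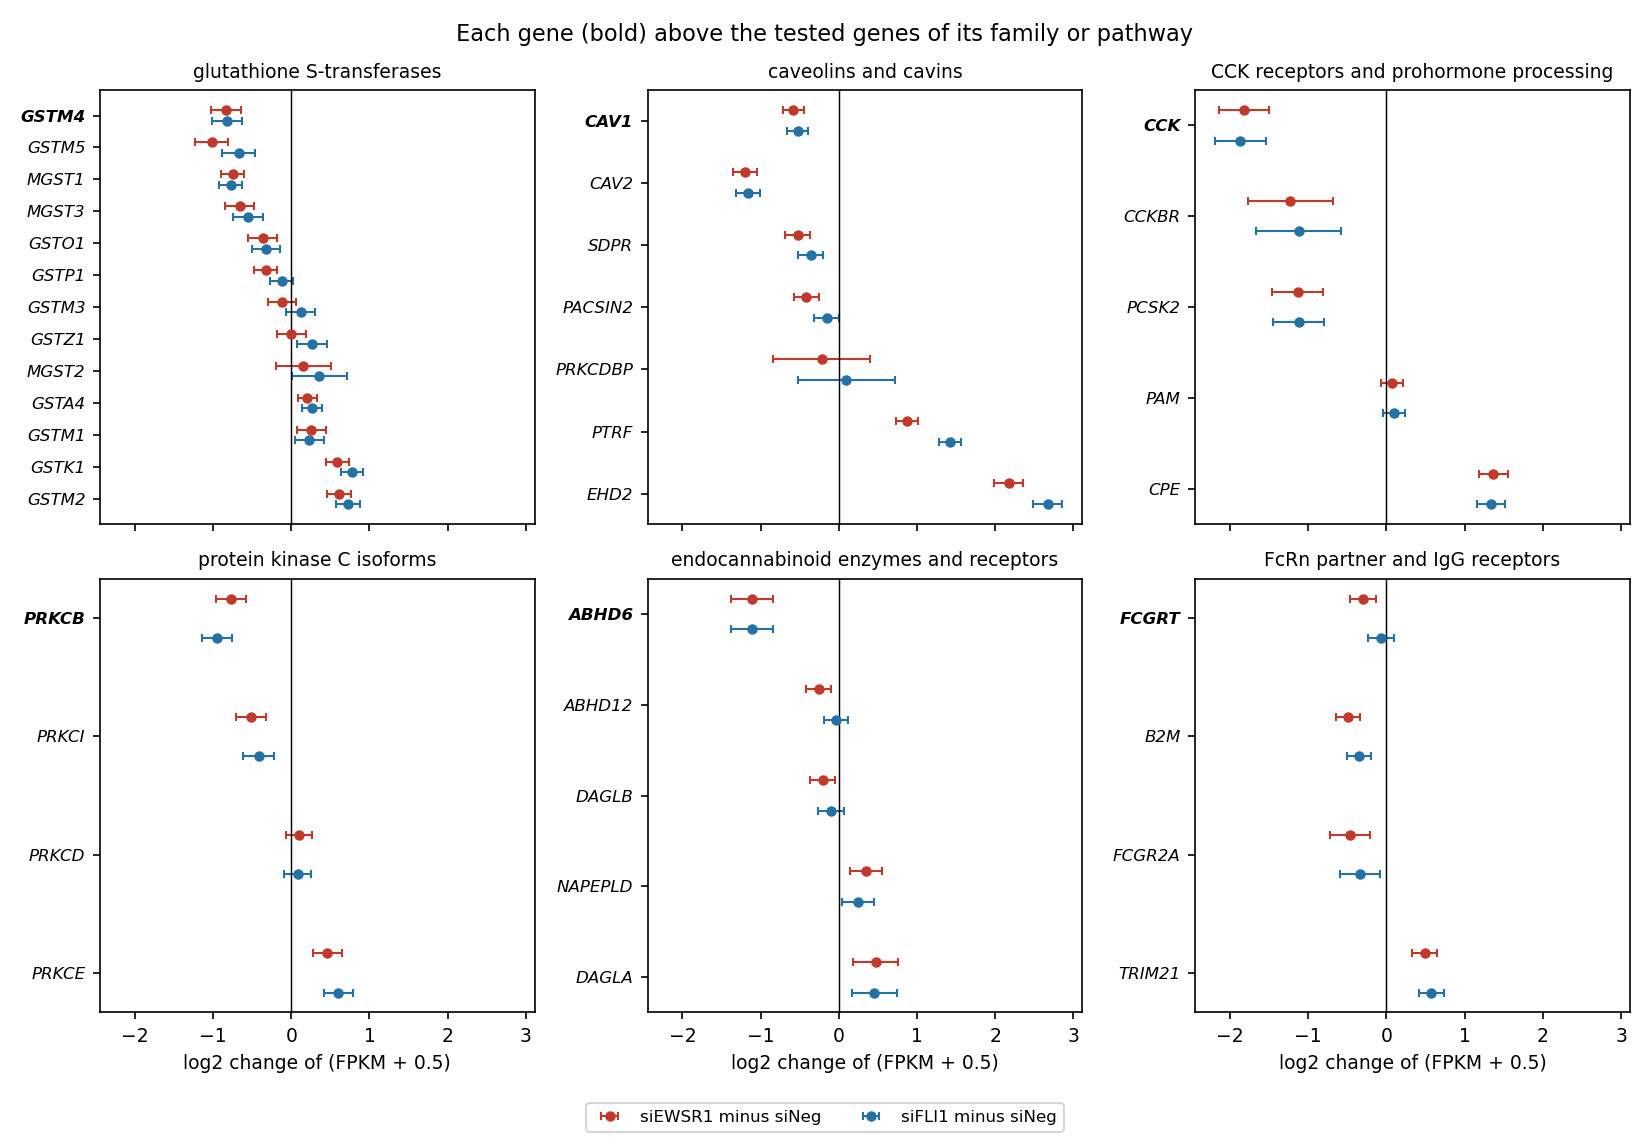
Log2 changes of (FPKM + 0.5) with 95% intervals for 6 of the genes (bold, top of each panel) and the tested genes of their families or pathways, siEWSR1 minus siNeg above siFLI1 minus siNeg. CAV1 and CAV2 lie left of 0 and PTRF and EHD2 right of it, and CCK and PCSK2 lie left of 0 while CPE lies at 1.37 and 1.34.

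Set directly against each other, siEWSR1 and siFLI1 gave no called difference for any of the 7 genes (limma, adjusted p under 0.05), while 3.86% of all tested genes were called. The log2 difference, siEWSR1 minus siFLI1, was -0.04 for NR0B1 (95% interval -0.60 to 0.51), 0.05 for CCK (-0.28 to 0.37), -0.01 for GSTM4 (-0.20 to 0.18) and -0.06 for CAV1 (-0.19 to 0.08). ABHD6 differed by less than 0.01, with an interval of -0.27 to 0.27. These intervals bound the difference without showing that the siRNAs acted alike, most loosely for NR0B1. FCGRT had the widest separation, at -0.23 (interval -0.40 to -0.06, adjusted p = 0.116), and PRKCB went the other way at 0.18 (-0.01 to 0.37, adjusted p = 0.227). Both FCGRT and CAV1 were lower in the 2 siEWSR1 libraries than in the 2 siFLI1 libraries without overlap, as were 32.9% of all tested genes. PRKCB was higher without overlap, as were 20.1%. Among the relatives, PTRF was lower with siEWSR1 than with siFLI1 (-0.54, adjusted p = 0.0134), and so was EHD2 (-0.50, adjusted p = 0.0321). The PTRF difference was not called without siFLI1 replicate 1 (adjusted p = 0.0784) or 2 (0.142). That of EHD2 was called with siEWSR1 replicate 1 left out, and not with any other library left out (adjusted p = 0.0532 to 0.218).

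The order of the 7 levels also shifted. In siNeg libraries CAV1 was highest, followed by NR0B1 and ABHD6, then PRKCB and GSTM4, whose libraries overlapped, and then CCK and FCGRT, which overlapped as well. With siEWSR1 CAV1 stayed highest and CCK was lowest. NR0B1, PRKCB, ABHD6, GSTM4 and FCGRT lay between 41.9 and 78.0 FPKM, and any pair of these overlapped except NR0B1 and FCGRT, where both NR0B1 libraries were higher. With siFLI1 the order was CAV1, NR0B1 and FCGRT, then ABHD6, GSTM4 and PRKCB, and then CCK. FCGRT thus stood above ABHD6, GSTM4 and PRKCB in both siFLI1 libraries, and below all 3 in both siNeg libraries.

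A wider list of 36 other genes described as fusion-activated was set beside the 7. Both lists were chosen with earlier results of these data known, so their counts cannot show how far the 7 resemble the class. Over all tested genes, 31.0% were lower with siEWSR1 (median log2 change 0.007) and 29.6% with siFLI1 (0.041). With siEWSR1, 29 of the 34 listed genes tested were lower, 3 higher and 2 not called, and their median log2 change was -0.86. With siFLI1 27 were lower, 3 higher and 4 not called, with a median of -0.91. Both counts of lower genes include TERT, the catalytic subunit of telomerase, which was tested only because its siNeg values passed the filter (0.642 and 0.401 FPKM with siEWSR1 and 0.580 and 0.286 FPKM with siFLI1, against 1.28 and 1.50 FPKM with siNeg), so a lower value was built in. It was named after its values were seen. NR0B1 and CCK lay below all 34 with siEWSR1, and PAPPA alone lay below them with siFLI1. The 3 lowest with siEWSR1 were AURKB, PAPPA and AURKA. AURKB, a mitotic kinase, stood at 38.5 and 30.7 FPKM with siEWSR1 and 35.3 and 31.6 FPKM with siFLI1, against 114 and 115 FPKM with siNeg (-1.72, adjusted p = 4.54e-05, and -1.76, adjusted p = 3.35e-05). PAPPA, a protease that cuts IGF-binding proteins and whose gene overlaps PAPPA-AS1, had changes of -1.71 (adjusted p = 0.000555) and -2.03 (adjusted p = 0.000243). AURKA, also a mitotic kinase, had changes of -1.63 (adjusted p = 2.66e-05) and -1.78 (adjusted p = 1.62e-05).

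At the other end, E2F3, a cell cycle transcription factor, was higher with both siRNAs (0.44, adjusted p = 0.000669, and 0.25, adjusted p = 0.00669). PLD2, a phospholipase, was higher as well (0.38, adjusted p = 0.00192, and 0.43, adjusted p = 0.00103). TNC, a matrix glycoprotein, stood at 216 and 211 FPKM with siEWSR1 and 186 and 185 FPKM with siFLI1, against 189 and 196 FPKM with siNeg. Its call as higher with siEWSR1 (0.15, adjusted p = 0.0288) ended in 7 of 16 alternative fits, and it was not called with siFLI1 (-0.05, adjusted p = 0.379) or between the siRNAs (0.21, adjusted p = 0.0694). FCGRT was placed between these genes and the bulk of the class. STYXL1, chosen after its values were seen, was the 1 gene of the 34 called between the siRNAs (siEWSR1 minus siFLI1 -0.47, adjusted p = 0.017), which did not hold when siFLI1 replicate 1 (adjusted p = 0.0927), siFLI1 replicate 2 (0.156) or siNeg replicate 1 (0.0503) was left out, or in a fit of the compared groups alone (0.0523).

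**Figure D4:**
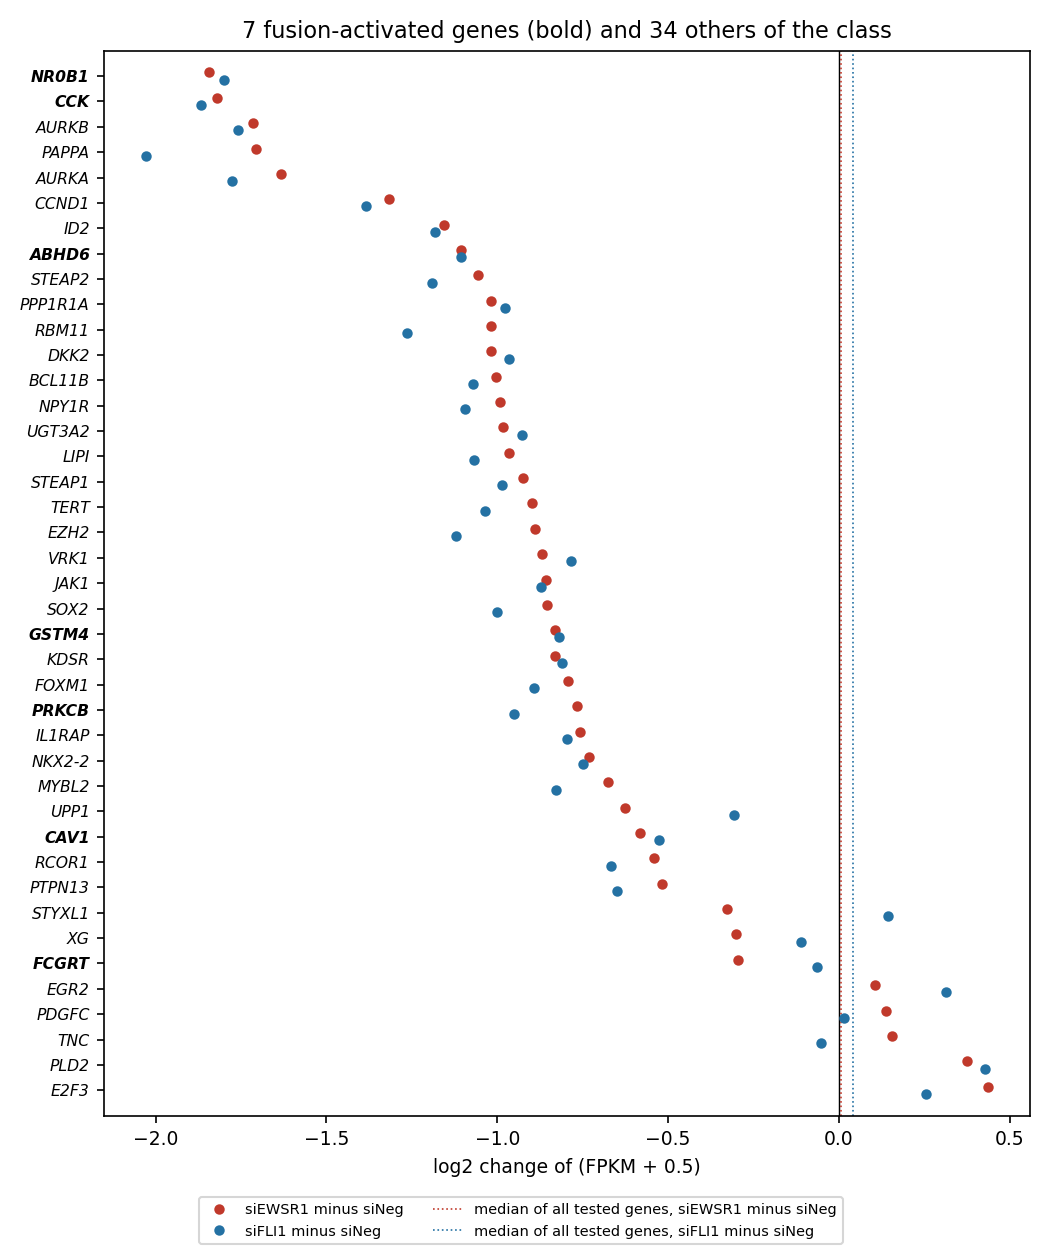
Log2 change of (FPKM + 0.5) with siEWSR1 and siFLI1, each minus siNeg, for the 7 genes (bold) and 34 other tested fusion-activated genes, ordered by the siEWSR1 change; dotted lines are medians of all tested genes. NR0B1 and CCK are at the top with siEWSR1 changes of -1.84 and -1.82, and FCGRT lies near the bottom at -0.29.

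Profiles of other genes over the 4 knockdown libraries were set against those of the 7, as log2 values minus each gene's siNeg mean, with likeness measured as Euclidean distance. The comparison was limited to 8322 tested genes on 1 row with an OK status in all libraries and a siNeg mean FPKM of at least 5. The mean profile of the 7 was -0.90 and -1.17 in the siEWSR1 libraries and -0.98 and -1.06 in the siFLI1 libraries. The 5 genes nearest to it were KIF3C (distance 0.0366), MYO10 (0.0382), ITM2A (0.0590), DSN1 (0.0608) and CHAF1B (0.0746). KIF3C encodes a kinesin, MYO10 a myosin of filopodia, DSN1 a kinetochore protein and CHAF1B a chromatin assembly factor subunit. The single nearest gene was ERFE for NR0B1 (0.216), ARHGAP11A for CCK (0.106), GRIA3 for GSTM4 (0.0232) and LRRC4C for ABHD6 (0.0579). It was PMM1 for CAV1 (0.0398), TCFL5, which overlaps COL9A3, for FCGRT (0.0402) and MMS22L for PRKCB (0.101). Among the 7 themselves, GSTM4 and PRKCB were closest (0.233), followed by NR0B1 and CCK (0.280), while CCK and FCGRT were farthest apart (3.35).

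The nearest tested gene on either side of each of the 7, looked up after their values were seen, gave 14 neighbours. With siEWSR1 7 of these were lower, 3 higher and 4 not called, and with siFLI1 6 were lower, 4 higher and 4 not called. Among all tested genes, 31.0% were lower and 33.2% higher with siEWSR1, and 29.6% were lower and 35.7% higher with siFLI1. Some of the lower calls among the neighbours did not hold in every alternative fit. Both neighbours of NR0B1 were lower, although they lie 349 and 344 kb away. IL1RAPL1, a relative of the interleukin receptor accessory protein gene, changed by -0.95 with siEWSR1 (adjusted p = 0.00452) and -1.08 with siFLI1 (adjusted p = 0.00264). Its level was low, at 0.829 to 1.44 FPKM in the knockdown libraries, against 2.74 and 2.68 FPKM with siNeg. GK, glycerol kinase, changed by -0.46 (adjusted p = 0.00361) and -0.57 (adjusted p = 0.00143). CAV1 lies between CAV2, lower as above, and MET, a receptor tyrosine kinase 111 kb away that was called higher with siFLI1 (0.50, adjusted p = 0.00193) and not with siEWSR1 (0.10, adjusted p = 0.318), with a difference between them of -0.40 (adjusted p = 0.052). CCK lies 31.9 kb from TRAK1, a trafficking adaptor for mitochondria, which was higher (0.79, adjusted p = 0.000151, and 0.65, adjusted p = 0.00032). ABHD6 lies 11.5 kb from RPP14, which was not called. PRKCB lies 146 kb from the mitotic kinase gene PLK1, which fell with both siRNAs (-1.52, adjusted p = 0.000113, and -1.60, adjusted p = 8.03e-05). Neither neighbour of FCGRT was called, and RCN3, 1.19 kb away, had a siEWSR1 change of -0.30 (adjusted p = 0.0569).

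Markers of other cell types were low in all groups. The 6 blood markers summed to 3.42 to 3.60 FPKM with siEWSR1 and 4.43 to 4.79 FPKM with siFLI1, against 3.26 to 4.12 FPKM with siNeg. CD68 was the blood marker above 1 FPKM, and PTPRC was listed at 0 in 5 of the 6 libraries. The 5 endothelial markers summed to 1.00 to 1.05 FPKM with siEWSR1 and 0.992 to 1.06 FPKM with siFLI1, against 0.354 to 0.428 FPKM with siNeg, with VWF at 0 in 5 of the 6 libraries. The 5 epithelial markers summed to 1.44 FPKM with siEWSR1 and 1.62 to 1.75 FPKM with siFLI1, against 2.09 to 3.25 FPKM with siNeg. The lower sums came from ESRP1, at 2.41 and 1.24 FPKM with siNeg and 0.0724 to 0.0758 FPKM in the knockdown libraries. KRT14 and CDH1 went the other way, higher in every knockdown library than in either siNeg library, and EPCAM and KRT5 overlapped between groups. The 5 Ewing sarcoma markers summed to 293 to 334 FPKM with siEWSR1 and 320 to 340 FPKM with siFLI1, against 399 to 405 FPKM with siNeg. Every one of them was lower in each knockdown library than in either siNeg library. CD99 made up most of each sum, at 277 and 246 FPKM with siEWSR1 and 289 and 272 FPKM with siFLI1, against 303 and 308 FPKM with siNeg. Of these markers NKX2-2, STEAP1, BCL11B and LIPI are also in the list of other fusion-activated genes. The part of these markers in the results was not tested.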

How the data were processed

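RNA of TC32 cells was sequenced in 6 libraries, 2 per siRNA. The authors deposited 1 table of gene-level FPKM per library (fragments relative to the length of the transcript and the size of the library) with a lower and an upper FPKM bound for each value, per the file headers. TopHat2 2.0.13, Cufflinks, Cuffdiff and hg19 appear in the tools and builds named per the submitters' processing notes, with no role given. Not given in the sources used here are the annotation, the strand setting and how reads mapping to several places were handled, so reads of near-identical paralogs could have been split between them.

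Rows were joined by gene and position, and the FPKM of the 380 symbols on more than 1 row was summed. Starts were converted to count from 1. Fragment counts could not be recovered: between 37.9% and 40.4% of low rows gave whole fragments within 0.01 when counts were read from the bounds, which on the same reading summed to 15159073 to 16298374 fragments per library. No count model was therefore used, and the depth behind single values is known only through these bounds, which cover 1 library each and counting and assignment error only.

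Genes reaching an FPKM of 1 in at least 2 libraries were tested, 13043 in all. Values were log2(FPKM + 0.5), fitted in limma 3.58.1 (R 4.3.3) with a variance trend and 1 fit over the 6 libraries, and two-sided p-values were adjusted by Benjamini-Hochberg over all tested genes, with a threshold of 0.05. Folds on this scale understate changes of low genes. The fit was tested on simulated data. The labels do not say that replicates were separate cultures, so the p-values measure the spread between these libraries, which may be technical. Replicate numbers are shared by the groups, but nothing in the labels ties same-numbered libraries together, so no block was used.

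The 7 genes and the lists of other fusion-activated genes, gene families and partner genes were chosen with earlier results of these data known. Named genes were the 7 genes, EWSR1, FLI1, the 3 lowest and 3 highest changes with siEWSR1 among the other fusion-activated genes, up to 3 genes per family list with the widest change, and the genes nearest in profile. Genes outside this rule are marked in the text as chosen with their values in view. The 16 alternatives were 2 other pseudocounts, 2 other filters, 2 scalings, 2 variance models, fits of the compared groups alone, a replicate block and leaving out each library. Promoter windows came from RefSeq (GRCh38.p14), and no coordinate was converted between builds. The values of 1 neighbouring gene are not reported here.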

Additional observations from a re-analysis of the deposited data

How the results depend on the processing

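With 2 libraries per group the spread rests on 3 residual degrees of freedom shared by all groups, and a lone library is assumed to vary like the others when its partner is left out. Over the 16 alternatives, the calls of NR0B1, CCK, GSTM4, ABHD6, CAV1 and PRKCB against siNeg kept their direction and side of the threshold with both siRNAs, with log2 changes of -2.20 to -1.48 for NR0B1 and -0.62 to -0.43 for CAV1 with siEWSR1, for example. FCGRT lost its siEWSR1 call under quantile normalization and without siNeg replicate 1. No result that passed the threshold turned its direction. Fragment counts were not recovered, so what depth limits was not measured.

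With the replicate block, 7 genes were lower with siEWSR1 and 6 with siFLI1, and no call of the 7 genes was changed. Deviations of same-numbered libraries correlated at -0.137 between siEWSR1 and siNeg, -0.053 between siFLI1 and siNeg and 0.0689 between siEWSR1 and siFLI1. With 2 libraries per group these numbers do not pair the samples.

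Counts in the short lists moved most. With no filter, the higher calls were 4 for endocannabinoid genes, 2 for the cholecystokinin list and 2 for the FcRn list with siEWSR1, and 3 for the cholecystokinin list and 2 for the FcRn list with siFLI1, where 1 FcRn gene was lower. With a mean FPKM of at least 5, 0 protein kinase C isoforms and 0 endocannabinoid genes were higher with either siRNA, and 1 gene each of the cholecystokinin and FcRn lists was lower. Quantile normalization gave 0 higher endocannabinoid genes with either siRNA, 1 lower with siFLI1, 2 higher genes of the cholecystokinin list with siEWSR1, and EWSR1 as 1 targeted gene higher with siFLI1 (0.20, adjusted p = 0.0107). Median-ratio scaling left 1 endocannabinoid gene higher with siFLI1, and a fit of the compared groups alone left 1 lower with siEWSR1. Between siEWSR1 and siFLI1, the other fusion-activated genes had 2 lower calls with a pseudocount of 1, a mean FPKM of at least 5 or a robust trend and 0 in a fit of the groups alone, and 1 higher call with quantile normalization or median-ratio scaling. There the caveolae genes had 1 lower call with no filter or in a fit of the groups alone.

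Leaving out each library in turn, lower calls ranged from 1 to 2 for the cholecystokinin and FcRn lists with either siRNA, from 0 to 2 for endocannabinoid genes with siEWSR1 and from 0 to 1 for the NR0B1 partners with siFLI1. Higher calls ranged from 0 to 2 for endocannabinoid genes with either siRNA, and from 2 to 4 with siEWSR1 and 3 to 6 with siFLI1 for glutathione S-transferases. Between siEWSR1 and siFLI1, lower calls ranged from 0 to 2 for caveolae genes and for glutathione S-transferases, and from 0 to 1 for the other fusion-activated and the targeted genes.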
